A study of Mus musculus with 6 samples.

Results

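The regions described here are 1707 short stretches of the mouse genome at which DNA pulled down with an antibody to methylated cytosine (MeDIP) outweighed the input DNA on each of 6 arrays. They were chosen as autosomal runs of 3 to 14 array probes with starts at most 500 bp apart, a mean probe length of 47 to 53 bp, and a mean log2 ratio of MeDIP over input above 0.2 on every array. Of the 12224 regions that met the criteria on position and probe length, 14% were enriched by this rule, and they made up 7.56% of the 22574 regions on the array with 3 or more probes. The regions were chosen by these ratios, so the levels in the first paragraphs are a description and were not tested. Probe length stood in for GC content in this choice. Neither GC content nor overlap with a promoter could be checked here, because the array files carry no gene names and no annotation of their build, mm9, was used. The regions are therefore named by mm9 position, and no gene name, exon, intron or sequence is given.

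The samples were hypothalamus, the part of the brain that controls appetite and energy use, from mouse offspring at 16 weeks of age. The inulin group was 3 samples from offspring whose mothers received inulin, a fermentable plant fibre. The obesity group was 3 samples from offspring of obese mothers, whose labels also name a maternal high fat diet. Each sample filled 1 two-colour array, with MeDIP DNA in the red channel and its own input DNA in the green channel. The labels used here give neither strain, sex nor litter, so p-values measure only the spread between these samples, which may be technical. Whole hypothalamus mixes neurons and glia, and a change of methylation within cells and a change in the share of cell types cannot be told apart.

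DNA methylation in mammals lies mostly on cytosines followed by guanine (CpG). Promoters that are dense in CpG are usually unmethylated, those poor in CpG are often methylated, and those of intermediate density vary most between tissues. MeDIP pulls down a fragment more readily the more methylated CpGs it holds, so a ratio reflects CpG density as well as the methylation level and is no percentage of methylation.

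All 3 inulin arrays shared 1 scan start in the file headers. Obesity arrays 1 and 3 shared another, and obesity array 2 had its own. No scan held both groups, so group and scan cannot be told apart in any comparison below. On each array, 94.4% to 96.4% of the probes had an input signal well above background, and 77.3% to 85.7% had such a MeDIP signal. Within the enriched regions, every region had a probe with MeDIP signal above background in both groups, and at 452 regions all probes were above it in both channels.

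The enrichment was moderate and narrow in range. The median log2 ratio over the 1707 regions was 0.50, 0.50 and 0.48 on inulin arrays 1, 2 and 3, and 0.55, 0.58 and 0.50 on obesity arrays 1, 2 and 3. The mean of the array medians was 0.49 ± 0.014 (SD, n = 3) in the inulin group and 0.54 ± 0.039 (SD, n = 3) in the obesity group. Obesity array 2 had the highest median and inulin array 3 the lowest. Averaged over the 6 arrays, regions ran from 0.24 to 1.38 with a median of 0.51, and 49 of them were above 1. The median region ranged over 0.28 log2 units from its lowest to its highest array.

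**Figure D1:**
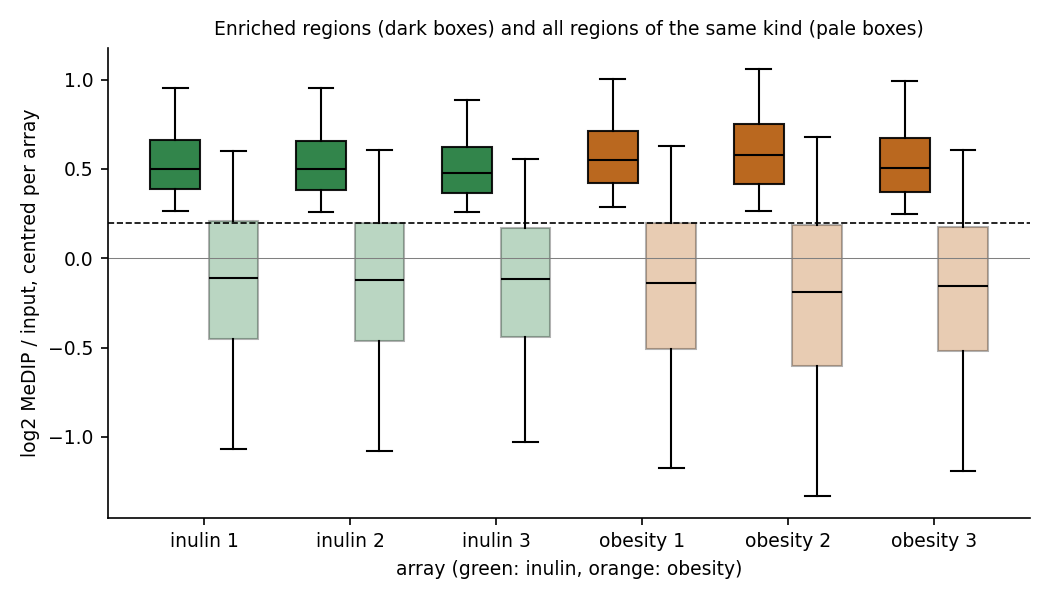
Log2 ratio of MeDIP over input on each array for the enriched regions (dark boxes) and for all regions of the same kind (pale boxes), with inulin arrays in green and obesity arrays in orange; boxes span the quartiles with a line at the median, whiskers run from the 5th to the 95th percentile, and the dashed line is the threshold of 0.2. The medians of the enriched regions lie between 0.48 and 0.58, and the boxes of the obesity arrays are wider in both sets.

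The enrichment lay mainly in the MeDIP channel. Set against each array's own median probe, the median MeDIP signal of the enriched regions was 0.53 to 0.60 above it on the log2 scale over the 6 arrays. Their input signal lay between -0.14 and 0.016. Of the other regions of the same kind, 4000 (32.7%) were below -0.2 on every array and are called depleted below, and 6517 (53.3%) were neither. The depleted regions had a median ratio of -0.61 ± 0.021 (SD, n = 3) in the inulin arrays and -0.73 ± 0.060 (SD, n = 3) in the obesity arrays.

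The rule separated a continuum. Regions above 0.2 on 5 of the 6 arrays numbered 554, and 64.2% of the regions of the same kind were above it on none. The 3 regions closest inside the threshold had a lowest array at 0.20, namely chr5:138557375-138558502, chr2:16276631-16278359 and chr16:50732549-50734120. The 3 closest outside it, chr14:55482496-55483448, chr11:105868217-105869991 and chr4:136158154-136159566, also had a lowest array that rounds to 0.20. The first 3 averaged 0.26, 0.31 and 0.52 over the arrays, and the last 3 averaged 0.31, 0.47 and 0.34, so the levels on either side of the threshold overlapped.

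The 5 regions with the highest mean ratio show the top of the range. At chr16:4593418-4594108 the ratio was 1.52, 1.03 and 1.42 on the inulin arrays and 1.59, 1.44 and 1.31 on the obesity arrays, with 2 of its 4 probes measured on all 6 arrays. At chr6:30686799-30688485, a region of 9 probes, it was 1.35, 1.63 and 1.18 on the inulin arrays and 1.32, 1.46 and 1.21 on the obesity arrays. At chr3:95363221-95363893 it was 1.48, 1.48 and 1.28 on the inulin arrays and 1.31, 1.45 and 1.15 on the obesity arrays. In each of these regions the groups overlapped, and the arrays differed by more within a group than the group means differed. At chr16:4593418-4594108 the difference was -0.13, but -0.48 with the outlier spots kept, which passed the threshold (adjusted p = 0.0115 by limma). With arrays on an equal scale, described below, chr3:95363221-95363893 was called higher in the inulin group (difference 0.41, adjusted p = 0.0396 by limma). The region at chr4:142983876-142984802 had 1.51, 1.51 and 0.90 on the inulin arrays and 1.34, 1.49 and 0.99 on the obesity arrays, and its replicate 3 was the lowest array of each group. The remaining one of the 5, at chr5:29895392-29896086, was lower in the inulin group and is described with the differences between the groups.

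Shorter probes went with more frequent enrichment even inside the length limits of the rule. Among regions of the same kind with a mean probe length from 47 bp to under 48 bp, 26.0% were enriched, and the share fell with each further base to 2.3% at 52 bp and above. The enriched regions had a median of 8 probes over 1610 bp. By number of probes, 17.3% of the regions with 3 to 4 probes were enriched and 8.98% of those with 11 to 14.

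The same relation held between probes pooled over the regions, and it was not computed within single regions. Within the enriched regions, probes of 45 bp, the shortest on the array, averaged a log2 ratio of 0.87 and made up 55.6% of the probes. Probes of 46 to 49 bp averaged 0.44, those of 50 to 54 bp 0.18, and those of 55 to 60 bp -0.13. In the depleted regions the same 4 classes averaged -0.00068, -0.80, -1.16 and -1.53. In each length class the mean was higher in the enriched regions, as the choice of regions favours. The long probes of enriched regions were near the array median while those of depleted regions were far below it.

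Enrichment was seldom uniform along a region. Of the 11890 probes of these regions with values on all 6 arrays, 9057 (76.2%) had a mean ratio above 0. In 233 regions (13.6%) every such probe was above 0, and in 945 (55.4%) at least 1 probe was below -0.5. The median region had its highest probe at 1.68 and its lowest at -0.60. This unevenness was not larger than elsewhere, since the median standard deviation over the probes of a region was 0.83 in the enriched regions, 1.11 in the depleted regions and 0.96 in the others of the same kind.

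The pattern along each region repeated from array to array. After subtraction of each region's own mean, probe values of any pair of arrays correlated at 0.892 to 0.965 over the 11890 probes, which share the array design and therefore the probe's length and sequence. The order of the regions by their means repeated less closely. Over the 1707 regions, whose range the rule had narrowed, the correlation was 0.773 to 0.886 between inulin arrays, 0.595 to 0.812 between obesity arrays and 0.484 to 0.768 between arrays of different groups, against 0.932 to 0.983 for any pair over all 22574 regions. The pair with the lowest value was inulin array 2 and obesity array 3.

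Averaged by distance from the region's centre, the ratio was highest near the middle. It was 0.44 in the 200 bp bin centred 900 bp upstream in the genome's coordinates and 0.62 in the bin centred 100 bp downstream of the centre. Both groups followed this course. The MeDIP signal did not, with 0.40 in the first of these bins, 0.41 in the other and its highest mean, 0.50, at -500 bp. The input signal was -0.097 and -0.27 in these bins, and the mean probe length 48.87 and 47.79 bp, so the higher ratio near the middle went with a lower input and shorter probes, and their part in it was not tested. The depleted regions lay between -0.93 and -0.59 in the same bins. The choice of both sets by these ratios favours that distance between them.

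**Figure D2:**
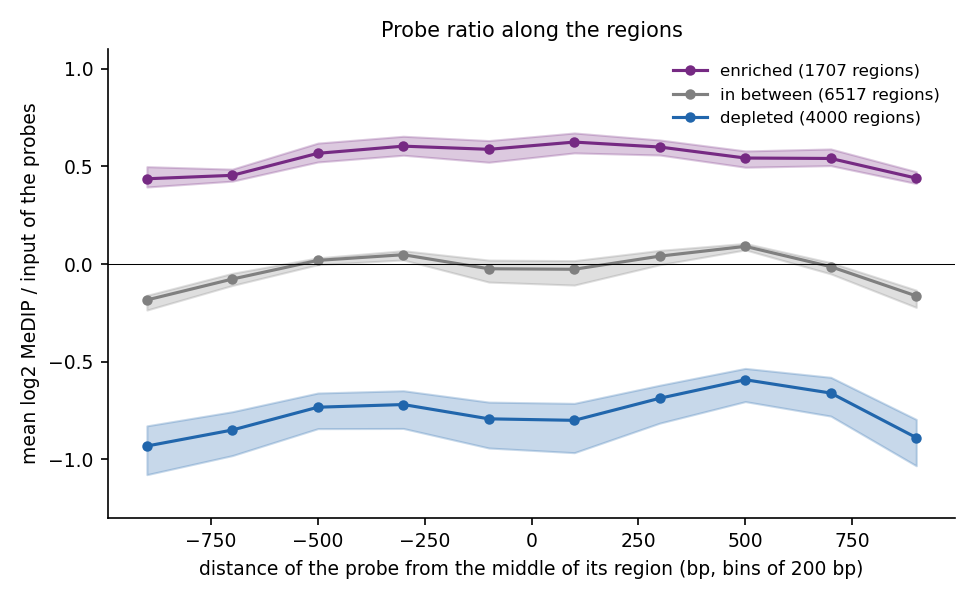
Mean log2 ratio of MeDIP over input of the probes in bins of 200 bp against distance in bp from the middle of the region, for enriched regions, depleted regions and the rest of the same kind; lines are means over the 6 arrays and bands span the lowest to the highest array. The enriched regions run from 0.44 at -900 bp to 0.62 at 100 bp, and the means of the depleted regions lie between -0.93 and -0.59.

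Enriched regions were scattered over all 19 autosomes. Their share of the regions of the same kind ran from 10.8% on chromosome 7 to 17.6% on chromosome 5, with 17.4% on chromosome 17. In windows of 2 Mb, 733 of the 1151 windows with a region of the same kind held at least 1 enriched region, with a median of 2. The window from 100 to 102 Mb of chromosome 15 held 13 of its 37 regions, the most of any. Next came 4 windows with 10 enriched regions each, which were 34 to 36 Mb of chromosome 17 (of 53), 46 to 48 Mb of chromosome 17 (of 27), 140 to 142 Mb of chromosome 4 (of 22) and 72 to 74 Mb of chromosome 8 (of 27).

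Most enriched regions stood alone. Of the 1707 regions, 1659 had no other enriched region within 10 kb, and the remaining 48 formed 24 pairs. A neighbouring region of any kind lay within 10 kb of 413 of them (24.2%). Those neighbours had a median ratio of 0.11, 11.1% were themselves enriched by the rule, and 32.4% were below 0 on all arrays. Neighbours of depleted regions had a median of -0.19, with 5.51% enriched and 51.2% below 0 on all arrays. Of the neighbours of the remaining regions of the same kind, 7.25% were enriched.

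The comparison of the groups asked where the offspring of inulin-treated dams differed from the offspring of obese dams. With each array centred on its median, 48 enriched regions (2.81%) had a lower ratio in the inulin group at an adjusted p under 0.05 by limma, against 1.81% of all regions tested. A single region (0.0586%) was higher, against 5.61% of all regions. The median difference, inulin minus obesity, was -0.046 over the enriched regions and 0.033 over all regions, and 1097 enriched regions (64.3%) had a negative difference. In 375 of them (22%) every inulin array was below every obesity array, against 14.2% of all regions, and in 85 (4.98%) every inulin array was above, against 20.8%. At an unadjusted p under 0.05, 261 enriched regions were lower (all regions, 9.6%) and 47 higher (all regions, 19%). The depleted regions, chosen by the same ratios as the enriched ones, went the other way. Of them, 7.5% were called higher and 0.275% lower, with a median difference of 0.11. In 30.3% of them every inulin array was above every obesity array, and in 3.95% every one was below.

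**Figure D3:**
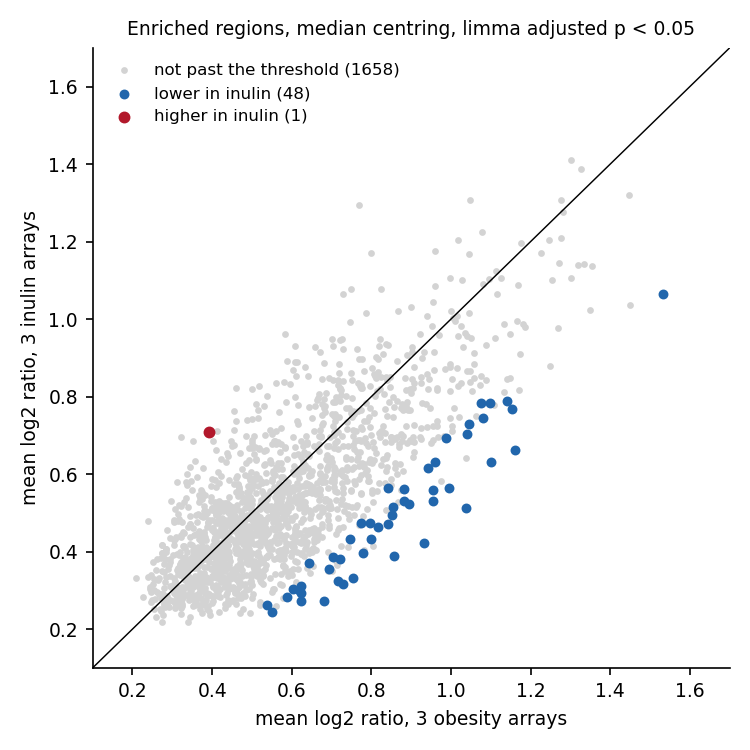
Mean log2 ratio of the 3 inulin arrays against that of the 3 obesity arrays for each of the 1707 enriched regions with median centring, with the line of equality and with regions past an adjusted p of 0.05 by limma in blue (lower in inulin, 48) or red (higher, 1). More points lie below the line than above it (1097 of 1707), and the blue points run along the lower edge over most of the range of levels.

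This direction turned with the scale of the arrays. The ratios of the inulin arrays spread less, with an interquartile range over probes of 1.38 on average against 1.73 in the obesity arrays. When each array was also brought to an equal spread, 39 enriched regions were higher in the inulin group by limma at an adjusted p under 0.05 (all regions, 2.15%) and 1 was lower (all regions, 1.89%), and their median difference was 0.064. The array medians of the enriched regions were then 0.56, 0.56 and 0.53 for inulin and 0.52, 0.48 and 0.46 for obesity. On this scale every inulin array lay above every obesity array, the reverse of the order of the group means before. The depleted regions turned as well, to a median difference of -0.054, with 0.875% called higher and 3.8% lower. Which scale is nearer to the methylation of the samples was not tested.

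**Figure D4:**
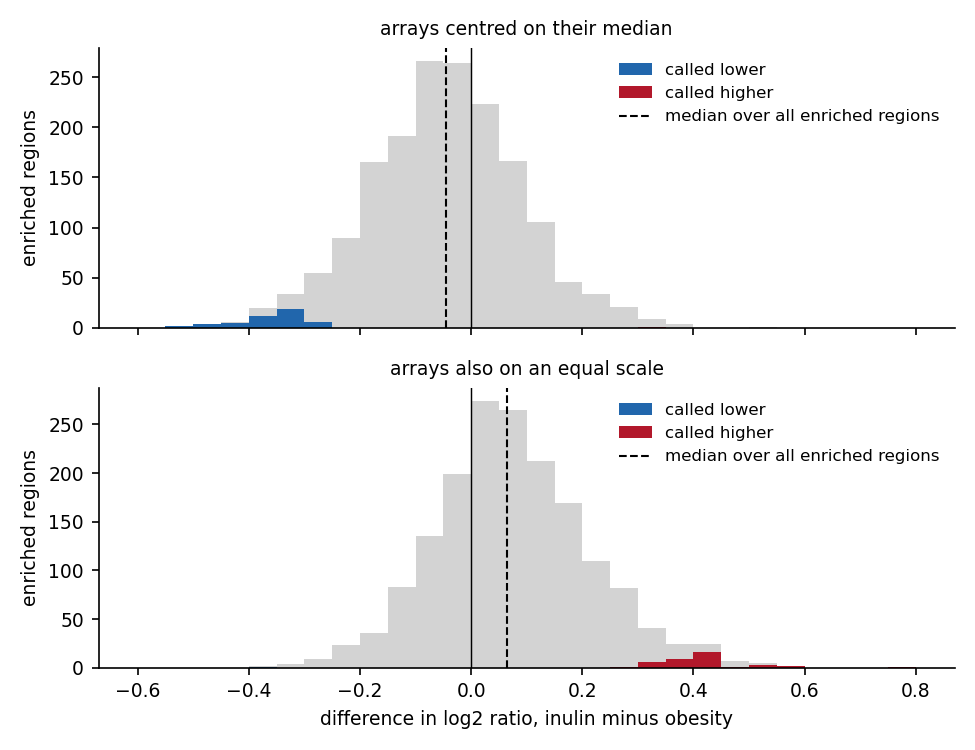
Number of enriched regions by difference in log2 ratio, inulin minus obesity, with arrays centred on their median (upper panel) and with arrays also on an equal scale (lower panel); regions called lower are blue, those called higher are red, and the dashed line is the median over all enriched regions. The median lies at -0.046 in the upper panel and at 0.064 in the lower, and the calls lie mainly in the left tail above and in the right tail below.

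Regions called on a scale had large differences there, so that choice largely fixed their sign on the other. All 48 regions called lower with median centring were also negative on the equal scale, with a median of -0.21, and 35 of them had an unadjusted p under 0.05 there. Of the 39 called higher on the equal scale, 38 were positive with median centring, with a median of 0.26, and 30 had an unadjusted p under 0.05. Only 1 region in each direction was called on both scales.

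The shift was larger at regions with a higher level, which the choice of regions favours. The rule kept every array above 0.2, so a region with a mean near that level had little room for a large difference. How much of the pattern below comes from this limit was not tested. In 4 equal parts of the enriched regions ordered by mean ratio, the median difference with median centring was -0.024, -0.037, -0.066 and -0.076 from the lowest to the highest part, with 2, 8, 14 and 24 regions called lower. On the equal scale the median difference was 0.051, 0.066, 0.061 and 0.11, with 0, 4, 14 and 21 regions called higher and 0, 0, 0 and 1 called lower, so the count of calls was larger at higher levels on both scales, in opposite directions.

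The number of calls changed with single arrays and with the scan, over all regions as well as the enriched ones. By limma at an adjusted p under 0.05, no enriched region was called in the lower direction without inulin array 1, 2 or 3 (all regions, 0% in either direction), with 171, 151 and 210 of them below 0.05 before adjustment. When obesity array 1, 2 or 3 was dropped, 13, 76 and 9 were called lower (all regions, 0.611%, 2.94% and 0.509%). The count of higher regions was 16 without obesity array 2 (all regions, 6.68%). It was 0 without any other array (all regions, 3.61% without obesity array 1 and 2.29% without obesity array 3), with 15 to 84 at an unadjusted p under 0.05. For the unadjusted counts without an array, no share over all regions was computed. With scan as a random block (estimated correlation 0.289), no enriched region was called in either direction (all regions, 0%), while 152 were lower and 19 higher at an unadjusted p under 0.05 (all regions, 5.23% and 12.7%).

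Each channel alone gave few calls at the enriched regions. In the MeDIP channel 2 enriched regions were called higher in the inulin group by limma at an adjusted p under 0.05 (all regions, 0.155%) and 0 lower (all regions, 0.0975%). Before adjustment, 288 had a p under 0.05 in that channel (all regions, 21%), 156 higher and 132 lower, and the median difference was 0.015. In the input channel 16 were called higher (all regions, 1.24%) and 7 lower (all regions, 0.899%), 379 had a p under 0.05 before adjustment (all regions, 24.4%), and the median difference was 0.085.

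Of the 48 regions called lower in the ratio, 0 passed an adjusted p of 0.05 by limma in the MeDIP channel alone (17 at an unadjusted p under 0.05) and 2 in the input channel alone (28). Their median differences were -0.34 in the ratio, -0.091 in the MeDIP signal and 0.30 in the input signal. The MeDIP signal was lower in the inulin group in 34 of them, the input signal higher in 43, and both in 29. The input difference was the larger of the pair in 33 of the 48 (68.8%), against 55.4% of all enriched regions. The 48 lay on 17 chromosomes, and the groups did not overlap in any of them, which their choice by a small p favours. At 6 of the 48 all probes were above background in both channels, against 452 of the 1707 enriched regions. The median share of probes with MeDIP signal above background was 87.5% in the 48 and 90% in all enriched regions.

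The region at chr5:130354455-130354922, with 3 probes over 468 bp, was the lower call found on both scales. Its ratio was 0.30, 0.43 and 0.54 on the inulin arrays and 0.77, 1.09 and 0.94 on the obesity arrays. All inulin arrays were below all obesity arrays. The difference was -0.51 with a standard error of 0.099, an adjusted p of 0.0252 by limma, and -0.36 with an adjusted p of 0.0499 on the equal scale. All 3 probes were lower in the inulin group, by 0.43, 0.95 and 0.14 at the first, the middle and the last, and the lower MeDIP signal (-0.64) was larger than the input difference (-0.12). Every probe was above background in both channels. The call was lost on dropping inulin array 1, 2 or 3 (adjusted p of 0.0901, 0.106 and 0.0615) or obesity array 3 (0.0524), with scan as a random block (0.112) and with quantile normalization (0.0537). Over all settings of the ratio its difference stayed between -0.74 and -0.35.

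The region at chr5:29895392-29896086, with 4 probes, was among the highest of all and the lower call with the smallest p. Its ratio was 0.99, 1.13 and 1.06 on the inulin arrays and 1.45, 1.54 and 1.61 on the obesity arrays, with no overlap. The difference was -0.47 with a standard error of 0.077 and an adjusted p of 0.0197 by limma. It lay mainly in the MeDIP channel, at -0.40 against 0.082 in the input. With median centring the 4 probes of the region differed by 0.27, -0.34, -0.53 and -1.26 in genome order, so 3 were lower. On the equal scale the difference of the region was -0.19 with an adjusted p of 0.181 by limma. With only probes whose input was well above background it was -0.20 with an adjusted p of 0.0971. It was -0.097 with normexp background correction (adjusted p = 0.193 by limma) and -0.056 in the authors' deposited table (adjusted p = 0.702).

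A pair of the largest differences rested on few or incomplete probes. At chr9:20806853-20807507 the ratio was 0.51, 0.37 and 0.66 on the inulin arrays and 1.17, 1.15 and 0.80 on the obesity arrays, a difference of -0.53 with a standard error of 0.12 and an adjusted p of 0.0344 by limma. Both channels were brighter in the inulin group there, by 0.87 in MeDIP and 1.41 in input. Of the 3 probes measured on all arrays, the last differed by -1.64, and the next largest difference was -0.18. With only those probes the region stayed called, at -0.61 (adjusted p = 0.025 by limma). It also stayed called with the outlier spots kept, at -0.41 (adjusted p = 0.0435 by limma). With dim probes left out the difference was -0.13 and did not pass the threshold (adjusted p = 0.561 by limma). At chr13:100877285-100878372 the ratio was 0.66, 0.65 and 0.68 on the inulin arrays and 1.30, 0.86 and 1.32 on the obesity arrays, a difference of -0.50 with a standard error of 0.12 and an adjusted p of 0.0395 by limma. It was -0.055 with the spots marked as outliers kept and -0.19 with only the probes measured on all arrays, and neither passed the threshold.

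Another 6 regions complete the 10 largest lower calls, with differences from -0.47 to -0.41 and adjusted p from 0.0213 to 0.0338 by limma. They are chr17:4993775-4995379, chr9:74917717-74919406, chr5:111307754-111309133, chr13:35085526-35087155, chr8:28284620-28286323 and chr14:65880816-65882533. Their inulin arrays ran from 0.22 to 0.72 and their obesity arrays from 0.62 to 1.17, and within each region the groups did not overlap. Nearly all of their probes pointed the same way, which the choice of regions by a large mean difference favours. At chr17:4993775-4995379 all 5 probes with values on every array were lower, and in each of the other 5 regions all but 1 of the probes were lower. In 5 of these 6 the inulin arrays had the brighter input, by 0.15 to 0.32, and chr14:65880816-65882533 had an input difference of -0.068 and a MeDIP difference of -0.50. None of the 10 named lower regions passed the threshold when any 1 of the inulin arrays was dropped or with scan as a random block, while all 10 passed with obesity array 2 dropped, 6 with obesity array 1 dropped and 4 with obesity array 3 dropped. Their differences stayed between -0.60 and -0.36 without an inulin array and between -0.54 and -0.41 with the scan block. They were smaller in the authors' deposited table, at -0.35 to -0.0057, where 1 of the 10 passed, and with normexp background correction, at -0.42 to -0.063, where 6 passed. At chr5:111307754-111309133 the difference was -0.43, against -0.018 in the authors' deposited table and -0.063 with normexp.

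The single region called higher, chr13:19711207-19712792, had ratios of 0.68, 0.65 and 0.79 on the inulin arrays and 0.46, 0.37 and 0.34 on the obesity arrays. The groups did not overlap. The difference was 0.32 with a standard error of 0.075 and an adjusted p of 0.0387 by limma, and 0.44 with an adjusted p of 0.0264 on the equal scale. Both channels were lower in the inulin group, by 0.47 in MeDIP and 0.77 in input, in means that did not average the same probes on every array. Of its 7 probes, 5 had values on all arrays, and 2 of those were higher by 0.83 and 0.57 while the other 3 differed by less than 0.1. With the outlier spots kept the difference was 0.17, and with only the probes measured on all arrays 0.25, and neither passed the threshold. The call was also lost with scan as a random block (adjusted p = 0.159), with the median of the probes (0.358) and on dropping any 1 array except obesity array 2 (0.0581 to 0.124). In the authors' deposited table the difference was 0.10 with an adjusted p of 0.29.

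The other 4 regions with the lowest p among higher means did not pass the threshold, with adjusted p from 0.0502 to 0.054 by limma. On the equal scale all 4 passed, with adjusted p from 0.0201 to 0.0321. These are chr12:83716725-83718759, chr19:17430673-17432183, chr11:83343521-83344500 and chr17:34806819-34807967. At chr17:34806819-34807967 the ratio was 1.20, 1.23 and 1.08 on the inulin arrays and 0.76, 1.0 and 0.64 on the obesity arrays, a difference of 0.37. All 6 probes had a positive difference, from 0.00078 to 1.32. The largest was at the last probe, and the next largest was 0.43. At chr12:83716725-83718759 the replicates were the closest of the 4, at 0.64 to 0.68 for inulin and 0.39 to 0.44 for obesity. Of its 9 probes with values on every array, 4 were lower in the inulin group and 1 was higher by 1.53. Its difference was 0.25, but 0.15 with only the probes measured on all arrays and 0.11 with only probes whose input was well above background. At chr11:83343521-83344500 the difference was 0.27, but 0.023 with the outlier spots kept. At chr19:17430673-17432183 it was 0.33, but 0.16 with the input filter.

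**Figure D5:**
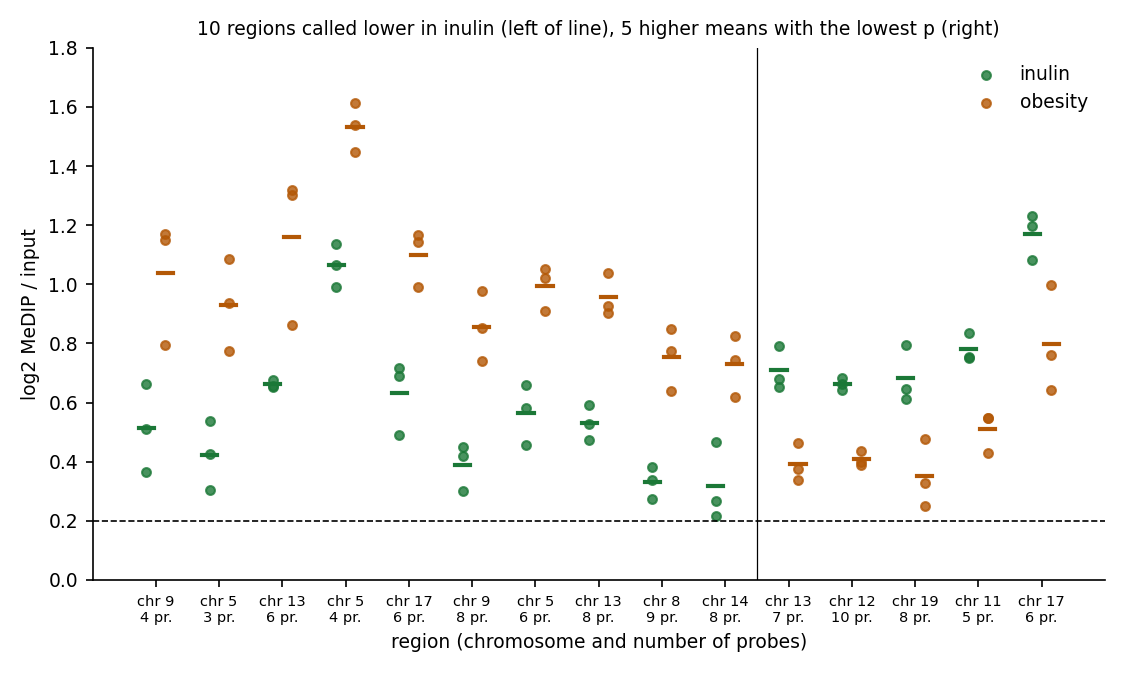
Log2 ratio of MeDIP over input on each array (points) with group means (bars) for the 10 largest lower calls, left of the vertical line, and the 5 higher means with the lowest p, right of it, labelled by chromosome and number of probes (pr.); the dashed line is the threshold of 0.2. The points of the groups do not overlap in any of the 15 regions, and of the 5 on the right only the first, on chromosome 13, passed the adjusted p of 0.05.

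Requiring all 6 arrays left out regions that passed 0.2 on every array of 1 group but on fewer arrays of the other. Above 0.2 on all inulin arrays but not on all obesity arrays were 585 regions, of which 31 (5.3%) were called higher in the inulin group, against 5.61% of all regions. The opposite held for 404 regions, of which 45 (11.1%) were called lower, against 1.81% of all regions. Their median differences were 0.15 and -0.17. On the equal scale these sets held 797 and 259 regions, so the set of the inulin group was the larger on both scales. Regions above 0.2 in every array of a group and at or below 0 in every array of the other numbered 8 for the inulin group and 5 for the obesity group. The choice of these sets fixed their directions and bears on their shares of calls, so neither is a result about them. Their sizes depend on the lowest array of each group.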

How the data were processed

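MeDIP and input DNA of 6 samples were hybridised to 6 two-colour Agilent arrays, Cy5 marking the MeDIP DNA and Cy3 the input, per the labels' protocols. The spot values are intensity, which the authors extracted with Feature Extraction 11.0.1.1 under protocol ChIP_1100_Jul11 (background subtraction, linear dye normalization), on mm9 positions, per the file headers. The authors' deposited table holds a score per probe of unstated log base, scale and centring, with the direction of the red over green ratio, and served as an alternative.

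From the processed intensities, log2 of red over green was taken, the 1901 to 4863 outlier spots of an array were dropped and each array was centred on its median over 174638 non-control probes. With outlier spots kept, the rule gave 1757 enriched regions. Probe values were averaged by region. The comparison used lmFit and eBayes of limma 3.58.1 (R 4.3.3, two-sided) over all 22574 regions, with Benjamini-Hochberg adjustment at 0.05; the code was tested on simulated data. Equal scale sets each array's median absolute value alike. Scan and position came from the file headers. Named regions were the 5 highest means, the 10 largest called differences per direction (the 5 lowest p where fewer than 5 passed), and 3 on each side of the threshold. The regions, lists and tests were chosen with earlier results of these data known. Cell type markers and gene lists were not analysed here, since the probes have no gene names. Alternatives were other normalizations and filters, each channel alone, blocks for replicate and scan, other thresholds and gaps, and each array left out.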

Additional observations from a re-analysis of the deposited data

How the results depend on the processing

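The number of enriched regions was 1646 to 2410 under most settings, but 4397 with only probes well above background in both channels, 412 at a threshold of 0.5 and 4864 with mean probe lengths of 45 to 55 bp, and 1731 to 1919 without any 1 array. Of the enriched regions, those called higher and lower by limma, with the shares of all regions in parentheses, were 1 and 48 (5.61%, 1.81%), against 39 and 1 (2.15%, 1.89%) on the equal scale, 21 and 104 (8.46%, 3.95%) with loess, 8 and 2 (1.11%, 1.09%) with quantile normalization, 3 and 114 (4.55%, 3.96%) with normexp, 17 and 4 (1.1%, 1.48%) in the authors' deposited table, 5 and 94 (2.98%, 3.52%) with both channels well above background, 5 and 84 (8.79%, 2.94%) with outlier spots kept, 4 and 82 (7.26%, 3.01%) with only probes measured on all 6 arrays (chosen after seeing the data), 2 and 0 (0.155%, 0.0975%) in the MeDIP channel, 16 and 7 (1.24%, 0.899%) in the input channel, 2 and 31 (2.09%, 1.16%) with the median of the probes, 23 and 150 (12.3%, 5.38%) at an adjusted p under 0.1, and 0 and 0 (0%, 0%) with scan as a random block. With a replicate block they were 16 and 73 (9.45%, 2.51%). The correlations of deviations between arrays of the same number were -0.145, 0.278 and 0.329 for numbers 1, 2 and 3. Inulin arrays 2 and 3 correlated best with the obesity array of their own number, but inulin array 1 with obesity array 2 (0.217). Whether the replicate numbers pair the samples cannot be settled from these values. Without any 1 array the calls were 0 to 16 higher (all regions, 0% to 6.68%) and 0 to 76 lower (all regions, 0% to 2.94%). The lower calls were not always the same regions. Of the 48, 46 recurred with outlier spots kept, 43 with loess, 31 with normexp and 28 with both channels well above background. Only 7 recurred with the median of the probes, 2 with quantile normalization and 1 in the authors' deposited table. The median difference over the enriched regions was 0.064 on the equal scale, 0.028 with quantile normalization, 0.022 in the authors' deposited table, 0.015 in the MeDIP channel, 0.085 in the input channel and -0.10 with the median of the probes, and -0.057 to -0.034 without any 1 array. In the input channel alone the sign was opposite to the ratio at chr5:29895392 (0.082), chr9:20806853 (1.41), chr13:100877285 (0.42), chr17:4993775 (0.32), chr9:74917717 (0.20), chr5:111307754 (0.32), chr13:35085526 (0.29), chr8:28284620 (0.15) and chr13:19711207 (-0.77), and in the MeDIP channel alone at chr9:20806853 (0.87) and chr13:19711207 (-0.47). The ratio falls as the input rises, so an opposite sign in the input channel is part of the ratio's difference and no reversal of it. Where a region's probes were not all measured on every array, these channel means did not average the same probes. Why the calls moved was not tested. The number of arrays limits the precision.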
